A study of Mus musculus with 11 samples.

Results

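Neutrophil-like nuclei made up 215 of the 188089 nuclei kept from 11 single-nucleus RNA libraries of the mouse central nervous system. A nucleus was counted as neutrophil-like when at least 3 of 8 marker genes (S100a8, S100a9, Csf3r, Slfn4, Il1r2, Cxcr2, Mmp9 and Retnlg) had a unique molecular identifier (UMI, 1 counted RNA molecule), when Csf3r, Slfn4 or Il1r2 was among them, and when the cerebellar granule cell genes Gabra6, Fat2, Chn2 and Etv1 together held under 0.2% of its UMIs. Nuclei were kept at 200 or more detected genes in sequencing run 1 or 500 or more in runs 2 and 3, with under 5% mitochondrial UMIs. The selection used measured values of these same nuclei. Levels of the 8 marker genes within these nuclei, and all differences in expression between neutrophil-like and other nuclei, are therefore descriptions without a test. Tests between genotypes were made on the shares and on sums over whole libraries.

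The study asked how interleukin-12 sensing by cells of the neuroectoderm affects experimental autoimmune encephalomyelitis (EAE), a model of multiple sclerosis induced with a myelin peptide in complete Freund's adjuvant and pertussis toxin. Nuclei were stained with Hoechst, sorted and captured on a droplet platform. The tissue was cerebellum, brainstem of 1 hemisphere and upper cervical spinal cord of male mice aged 8 to 12 weeks. Mice labelled Il12rb2fl/fl, called fl, carried loxP-flanked alleles of the interleukin-12 receptor subunit. Mice labelled NestinCre/+Il12rb2fl/fl, called NestinCre, carried the same alleles plus Cre recombinase driven by the Nestin promoter. That promoter works in neural precursors, so that neurons, astrocytes and oligodendrocytes descend from recombined cells and the line is not specific to neurons. Recombination in neutrophils or their marrow precursors was not measured here. The EAE libraries came from day 10 after immunization (4 fl and 4 NestinCre), and the naive libraries came from mice that were not immunized (2 fl and 1 NestinCre).

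Neutrophils are short-lived granulocytes that leave the bone marrow in response to granulocyte colony-stimulating factor, sensed by the receptor Csf3r, and follow chemokines through Cxcr2. They store antimicrobial proteins in granules that are filled stage by stage during maturation, so transcripts of the early granule proteins are largely gone from mature cells, while S100a8 and S100a9 (together calprotectin) and Mmp9 mark later stages. In EAE they enter the central nervous system early and are a source of interleukin-1 beta, proteases and reactive oxygen.

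The kept nuclei of a library held between 40744385 and 86004738 UMIs. Sequencing run 1 held EAE replicates 1 to 3 of both genotypes, run 2 held replicate 4 of each and fl naive replicate 2, and run 3 held the other naive libraries. Il12rb2, the floxed gene, had 8.17 to 17.2 UMIs per 1000000 (CPM) in the 8 EAE libraries, summed over all kept nuclei, and no difference between genotypes passed the test (log2 difference -0.03, adjusted p = 0.984, edgeR quasi-likelihood test with Benjamini-Hochberg adjustment). Reads near the 3′ end and from introns do not check the deletion. Of the kept nuclei, 8492 (4.51%) carried a cell barcode that also occurred in another library. This was so for 8 of the 215 neutrophil-like nuclei, and none of these barcodes recurred in another neutrophil-like nucleus.

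Most neutrophil-like nuclei had little RNA, but a minority did not look like neutrophils. Their median was 1028 UMIs (range 510 to 50775) and 776 genes, against 2446 UMIs and 1470 genes for the other kept nuclei. Nuclei under 6000 UMIs, the upper limit that the study itself set, numbered 188 and had a median of 965 UMIs, with 1.08% of UMIs on the 8 markers. The other 27 had a median of 14695 UMIs and only 0.0395% on the markers. A set of 10 neuron genes, picked after the data were seen, held a median of 4.43% of the UMIs in these 27 deep nuclei, close to the 5.06% in the other kept nuclei and above the 0.524% in the 188 shallower ones. More than 2% of UMIs fell on these neuron genes in 26 of the 27 deep nuclei and in 14 of the 188 shallower ones. No UMI of 32 further neutrophil genes was found in 17 of the 215 nuclei, of which 7 were under 6000 UMIs. For the deep nuclei the neutrophil label went against the data, and expression is therefore described over the 188 nuclei under 6000 UMIs.

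**Figure D1:**
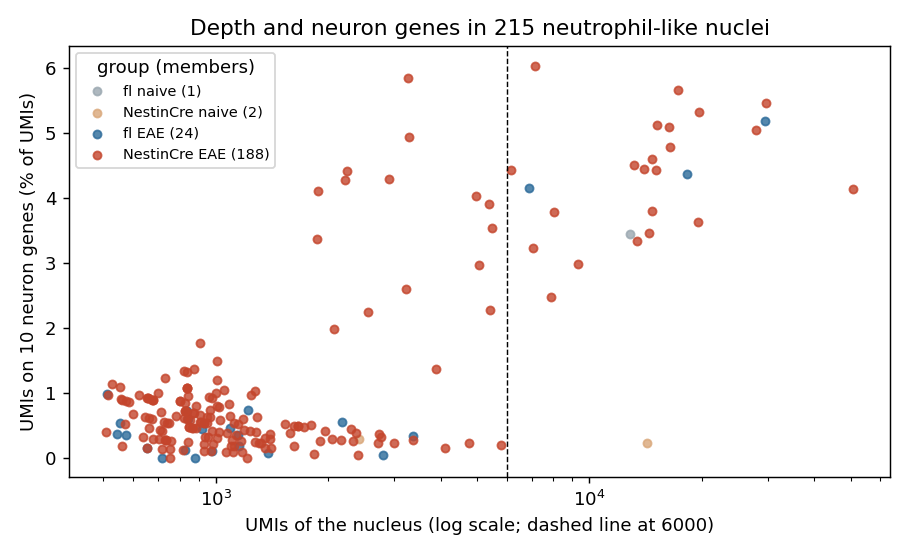
Each point is 1 of the 215 neutrophil-like nuclei, coloured by group, with its UMIs on the horizontal axis (log scale, dashed line at 6000) and the percentage of its UMIs on 10 neuron genes on the vertical axis. The 27 nuclei at 6000 UMIs or more had a median of 4.43% on neuron genes, and the 188 below had 0.524%.

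The selection had 2 edges. At the marker minimum, 93 members had exactly 3 markers (median 1009 UMIs, 0.486% on the markers and 0.604% on neuron genes), and 469 kept nuclei had 2 markers and were left out (median 5172 UMIs, 0.0444% and 3.22%). The members with more markers numbered 63 with 4, 33 with 5, 14 with 6, 10 with 7 and 2 with all 8. All 3 members of NestinCre EAE replicate 4 and all 3 members from naive mice had just 3 markers. At the granule cell limit, 143 nuclei met the marker rule but exceeded 0.2% (median 2464 UMIs, 0.453% on the markers and 3.75% on neuron genes). Of the 215 members, 15 also met the marker rule for monocyte-derived phagocytes (3 or more of Ccr2, Ms4a4c, Chil3, Plac8, Lyz2, Fn1, Ly6c2 and Ms4a7, with 1 of the first 3 among them), 4 met the corresponding rule for microglia and 0 met that for T or natural killer (NK) cells. All 15 were among the 188 nuclei under 6000 UMIs, 12 of them in NestinCre EAE replicate 1, and they stayed in the levels given below.

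Neutrophil-like nuclei were concentrated in 3 NestinCre EAE libraries, and NestinCre EAE replicate 4 did not share this. In NestinCre EAE they were 111 of 13441 kept nuclei in replicate 1 (0.826%, 95% Clopper-Pearson interval 0.68 to 0.994), 33 of 17299 in replicate 2 (0.191%, 0.131 to 0.268), 41 of 13108 in replicate 3 (0.313%, 0.225 to 0.424) and 3 of 22903 in replicate 4 (0.0131%, 0.0027 to 0.0383). In fl EAE they were 5 of 15694 (0.0319%, 0.0103 to 0.0743), 4 of 17271 (0.0232%, 0.00631 to 0.0593), 6 of 18387 (0.0326%, 0.012 to 0.071) and 9 of 18182 (0.0495%, 0.0226 to 0.0939) in replicates 1 to 4. The first 3 NestinCre EAE libraries stood above all 4 fl EAE libraries, and the fourth stood below all of them. Intervals and detection floors cover counting error only.

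**Figure D2:**
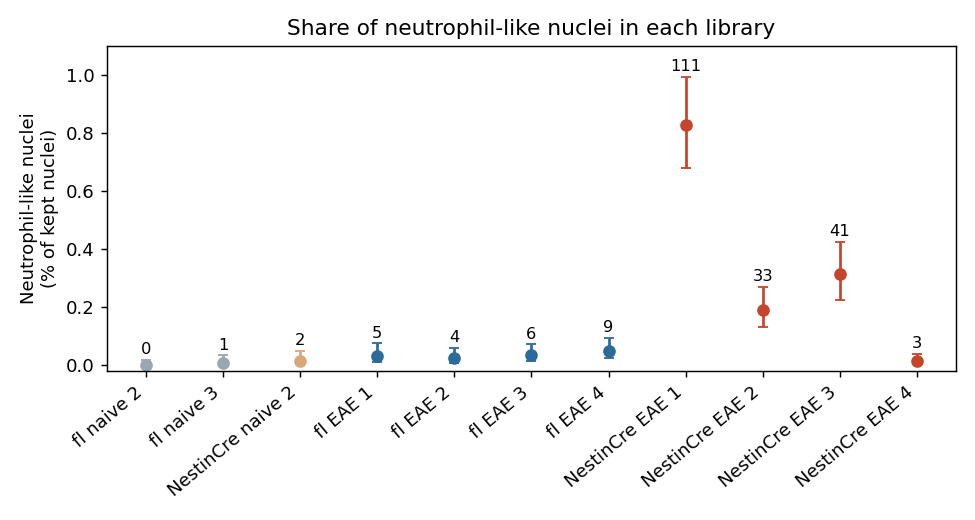
The percentage of kept nuclei that were neutrophil-like is plotted for each of the 11 libraries, coloured by group, with 95% Clopper-Pearson intervals as bars. NestinCre EAE replicates 1 to 3 lie between 0.191% and 0.826%, and the other 8 libraries lie at or below 0.0495%.

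NestinCre EAE libraries supplied 188 of the 215 members (87.4%) and fl EAE libraries 24, a coincidence of number with the 188 shallower nuclei. The mean share was 0.336% ± 0.349 (SD, n = 4) in NestinCre EAE and 0.0343% ± 0.0110 (SD, n = 4) in fl EAE. The gap of 0.301 percentage points missed the threshold in an exact two-sided permutation test over the 8 libraries (p = 0.143, adjusted p = 0.214 over 3 share tests, smallest possible p = 0.0286). Within run 1 the difference was 0.414 points with no overlap between genotypes (exact permutation p = 0.1, the smallest that 3 against 3 allows). In run 2, with 1 library per genotype, the order was the opposite, 0.0131% against 0.0495%. The methods give separate mice as the EAE replicates of a genotype. The difference rested on individual libraries. It was 0.138 points without NestinCre EAE replicate 1, and 0.409 points without replicate 4 (exact permutation p = 0.0286, adjusted p = 0.0857). Over all alternatives the adjusted p ranged from 0.0857 to 0.285.

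Members with neuron genes came from both genotypes. Above 2% of UMIs on neuron genes were 19 of 111, 9 of 33, 5 of 41 and 3 of 3 members in NestinCre EAE replicates 1 to 4, and 0 of 5, 1 of 4, 1 of 6 and 1 of 9 in fl EAE. Without them, as an alternative added after the data were seen, the mean share was 0.274% ± 0.295 in NestinCre EAE and 0.0301% ± 0.0111 in fl EAE (SD, n = 4), and NestinCre EAE replicate 4 held no member. The difference was then 0.244 points (exact permutation p = 0.143). A doublet score (Scrublet, the top 0.8% per 1000 barcodes of each library) marked 7, 5, 6 and 0 members of NestinCre EAE replicates 1 to 4 and 0, 1, 1 and 1 of fl EAE. Among all kept nuclei of these NestinCre libraries it marked 1485 of 13441, 2485 of 17299, 1498 of 13108 and 4402 of 22903. In fl EAE it marked 2021 of 15694, 2594 of 17271, 2893 of 18387 and 2812 of 18182, a number set in advance by library size. The part of doublets in the shares was not tested beyond these removals.

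In naive tissue neutrophil-like nuclei were at the limit of detection. The naive libraries held 0 of 20135 nuclei (fl replicate 2, which allows a share of up to 0.0149%), 1 of 16844 (fl replicate 3, 0.00594%) and 2 of 14825 (NestinCre replicate 2, 0.0135%). Of these 3 nuclei, 2 were deep, at 12841 and 14281 UMIs, and the first had 3.45% of UMIs on neuron genes. Among nuclei under 6000 UMIs 1 remained, in NestinCre replicate 2, and the mean naive share was 0.00258% ± 0.00446 (SD, n = 3), against 0.182% ± 0.280 over the 8 EAE libraries. The mean over the 8 EAE libraries was 0.185% ± 0.280 (SD), against 0.00648% ± 0.00676 in the 3 naive ones (SD, n = 3), a difference of 0.178 points (exact two-sided permutation p = 0.285, adjusted p = 0.285, smallest possible p = 0.00606). On a log2 scale the difference was 3.43, with an exact permutation p of 0.0242 (adjusted p = 0.0727), and over all alternatives the adjusted p ranged from 0.0727 to 0.333. Only run 2 held both conditions, at 0.0495% and 0.0131% in EAE and 0% in the naive library. The paper describes the naive library of its second sequencing experiment as an internal control for reproducibility and batch effects. Whether the 3 naive libraries came from separate mice was not stated. In runs 1 and 3, run and condition cannot be told apart.

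Phagocytes and T or NK cells were also counted mostly in the NestinCre EAE libraries. Microglia-like nuclei were not, with 1268 in NestinCre EAE, 983 in fl EAE, 319 in NestinCre naive and 666 in fl naive libraries. Phagocyte-like nuclei, which met the marker rule for monocyte-derived phagocytes, numbered 274 in NestinCre EAE, 21 in fl EAE, 0 in NestinCre naive and 1 in fl naive libraries, and T/NK-like nuclei numbered 77, 11, 2 and 4. Among the neutrophil-like, phagocyte-like and T/NK-like nuclei together, neutrophil-like nuclei were 111 of 264 (42.0%), 33 of 89 (37.1%), 41 of 148 (27.7%) and 3 of 38 (7.89%) in NestinCre EAE. In fl EAE they were 5 of 8 (62.5%), 4 of 6 (66.7%), 6 of 22 (27.3%) and 9 of 20 (45.0%). The genotypes overlapped in this measure. Mean shares of 28.7% ± 15.1 in NestinCre EAE and 50.4% ± 18.0 in fl EAE (SD, n = 4) differed by -21.7 points (exact two-sided permutation p = 0.143, adjusted p = 0.214, range over alternatives 0.0857 to 0.714).

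The 188 shallower nuclei carried the markers they were selected on, at levels far above those of other leukocytes. Members were left out of the other classes, so this contrast was set by the selection on both sides. The other classes also kept nuclei of all depths, while the 188 were limited to under 6000 UMIs. Csf3r, the receptor for granulocyte colony-stimulating factor (chr4:125918262-125938236, GRCm39), was detected in 89.9% of them, Slfn4, an interferon-inducible schlafen gene of myeloid cells (chr11:83066012-83081042), in 87.8%, and Il1r2, the decoy receptor for interleukin-1 (chr1:40113239-40164391), in 66.0%. S100a9 (chr3:90599931-90603071) was detected in 63.3% and its partner S100a8 (chr3:90567118-90578128) in 47.3%. The chemokine receptor Cxcr2 was detected in 32.4%, the gelatinase Mmp9 in 11.7% and the resistin-like Retnlg in 10.1%. As a background, S100a9 had a UMI in 0.185% to 9.02% of the nuclei of each library that carried cerebellar granule cell genes, whose median depth was 1843 to 3181 UMIs. Summed over the 188 nuclei, Csf3r had 2051 CPM, against 212 in phagocyte-like and 77.4 in microglia-like nuclei. S100a9 had 2547 CPM against 14.5 in phagocyte-like nuclei, and Slfn4 had 2934 CPM against 210.3.

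Marker levels varied by library, without a test. S100a9 stood at 2242, 1025 and 4363 CPM in the nuclei of NestinCre EAE replicates 1 to 3 and at 2875 CPM in the 21 nuclei of the fl EAE libraries pooled. Their 95% exact Poisson intervals were 2003 to 2501, 710 to 1432, 3796 to 4992 and 2237 to 3639. These cover counting error only, and UMIs of 1 nucleus are not independent, since a single nucleus of replicate 3 held 58 of the 212 S100a9 UMIs there. Il1r2 ran differently, with 1464, 965 and 494 CPM in NestinCre EAE replicates 1 to 3 and 708 CPM in fl EAE. Slfn4 lay between 2799 and 3118 CPM in all 4 sets. Expression within neutrophil-like nuclei was not tested between genotypes. A minimum of 10 such nuclei per library was set for a test, and of the 11 libraries NestinCre EAE replicates 1 to 3 alone reached it.

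Beyond the selection markers, the 188 nuclei were compared on gene lists with the 296 phagocyte-like, 3236 microglia-like and 94 T/NK-like nuclei of the same libraries. These classes were defined by markers and used for description. They had no upper UMI limit, with medians of 1874, 3905 and 1737.5 UMIs and maxima of 21676, 90325 and 34354. Deep nuclei weigh more in their sums, and the part of depth in these contrasts was not tested. Most lists summed to more in neutrophil-like than in phagocyte-like nuclei, while the NADPH oxidase list and the list of interleukin-12 and interferon gamma receptor genes (250.0 against 300.2 CPM) summed to less.

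**Figure D3:**
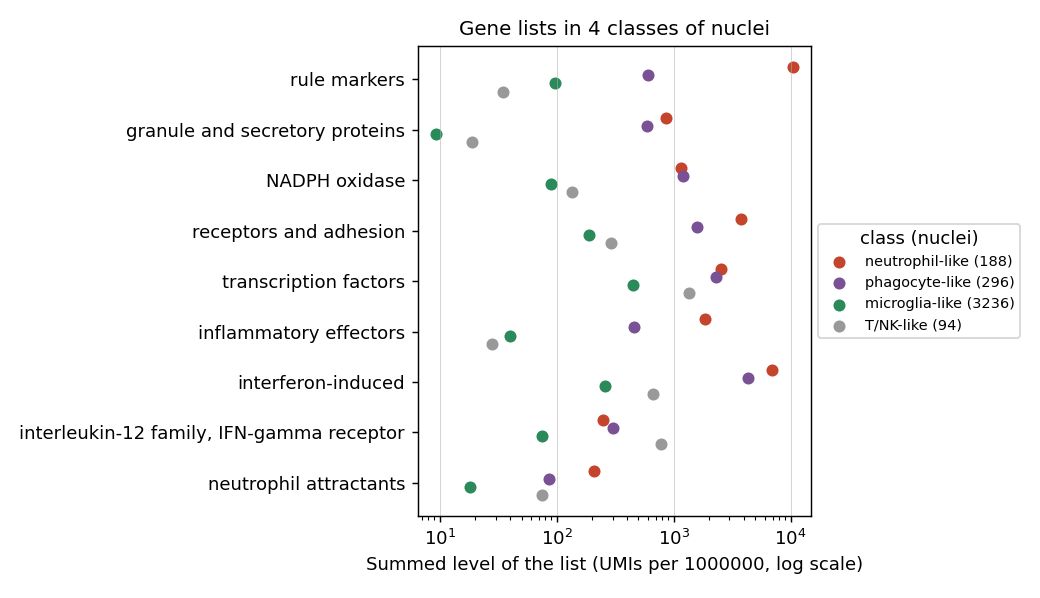
The summed level of each gene list (UMIs per 1000000 UMIs of the class, log scale) is shown for neutrophil-like nuclei under 6000 UMIs and 3 other classes of nuclei, taken at all depths. The selection markers stood at 10524 in neutrophil-like and 607 in phagocyte-like nuclei, and the interferon-induced list at 6864 and 4313.

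Transcripts of granule proteins were sparse. Of 14 genes, Elane, Mpo, Prtn3 and Ctsg, the serine proteases and peroxidase of the primary granules, and Itgb2l were at 0 in all 188 nuclei, where 3 UMIs would correspond to 11.7 CPM. The list summed to 856 CPM, against 594 in phagocyte-like nuclei, in which 534 came from the chitinase-like Chil3 alone, 1 of the genes that define that class. Chil3 was at 199 CPM in the neutrophil-like nuclei. Mmp8, the neutrophil collagenase, was at 176 CPM (32 nuclei) against 27.8, the iron-sequestering lipocalin Lcn2 at 105 CPM (18 nuclei) against 11.9, and Abca13 at 109 CPM against 2.65. At least 1 granule protein gene was detected in 68 of the 188 nuclei (36.2%).

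The granule genes Ltf (lactoferrin), Camp (cathelicidin), Ngp and Fcnb were confined almost entirely to 4 nuclei, chosen after their values were seen. Other granule genes were not so confined, with Mmp8 in 32 nuclei, Lcn2 in 18 and Cd177 in 8. A UMI of any of Ltf, Camp, Ngp and Fcnb was found in 7 of the 188 nuclei and UMIs of 2 or more of them in 4. The 4 held all 26 Ltf and all 3 Fcnb UMIs, 4 of the 5 Camp UMIs and 19 of the 23 Ngp UMIs of the 188 nuclei. They came from fl EAE replicate 1 (720 UMIs), NestinCre EAE replicates 1 and 2 (3281 and 3230 UMIs) and NestinCre naive replicate 2 (2420 UMIs). The nucleus from naive tissue carried all 4 genes (11 Ltf, 3 Camp, 6 Ngp and 3 Fcnb UMIs) together with 16 S100a9 UMIs and the proliferation genes Mki67 (3 UMIs) and Top2a (4 UMIs). It held most of the Mki67 and Top2a UMIs of the 188 nuclei, which had 4 and 5 in all.

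The phagocyte NADPH oxidase, which makes superoxide, was expressed at 1149 CPM for 6 subunits and at 1193 CPM in phagocyte-like nuclei. The composition differed between these classes. The cytosolic subunit Ncf1 was at 293 CPM against 179 in phagocyte-like nuclei, while the membrane subunit Cybb was at 203 against 499 CPM. Cyba, its partner, was at 133 and 151 CPM.

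Receptors and adhesion molecules summed to 3793 CPM, against 1574 in phagocyte-like and 188 in microglia-like nuclei, and all 18 genes were detected. Cd300lf, an inhibitory lipid receptor of myeloid cells, was at 1117 CPM (134 of 188 nuclei) against 489. Selplg, an adhesion ligand of leukocytes, was at 301 CPM against 123. The C-type lectin Clec4d was at 242 CPM (48 nuclei) against 25.1 and the amplifying receptor Trem1 at 58.6 against 7.94. Tlr4, the endotoxin receptor, was at 352 against 128 CPM, and the chemokine receptor Ccr1 at 316 against 132. Cxcr4, which retains neutrophils in the marrow, was at 23.4 CPM against 14.5.

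Transcription factors separated the classes less, with 2531 CPM for 11 genes against 2281. Cebpe and Gfi1, which act in granulocyte precursors, were at 0 in the 188 nuclei. Mxd1, an antagonist of Myc, was at 774 CPM (96 nuclei) against 76.7 in phagocyte-like nuclei, and at 797 CPM ± 22.5 (SD, n = 3) over NestinCre EAE replicates 1 to 3. Spi1 and Cebpb, myeloid regulators, were at 332 and 199 CPM against 231 and 196. Runx1 and Ikzf1 were lower than in phagocyte-like nuclei, at 422 and 332 CPM against 792 and 503.

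Inflammatory effectors summed to 1856 CPM, against 455 in phagocyte-like and 39.9 in microglia-like nuclei, and at least 1 was detected in 125 of 188 nuclei (66.5%). Il1b, which encodes interleukin-1 beta, was at 688 CPM (68 nuclei) against 86.0, Hdc, the histamine-forming histidine decarboxylase, at 414 CPM (64 nuclei) against 7.94, and Acod1, which makes itaconate, at 359 CPM (37 nuclei) against 122. Padi4, the enzyme that citrullinates histones, was at 70.3 CPM against 10.6, and the chemokine Cxcl2 at 66.4 against 3.97. Arg1, by contrast, was at 7.81 CPM against 68.8. Cxcl3, Ccl3 and Ccl4 were at 0.

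The inflammatory genes varied by library. Il1b was at 441, 452 and 1667 CPM in NestinCre EAE replicates 1 to 3 (95% intervals 339 to 565, 253 to 746 and 1324 to 2072) and at 708 CPM in pooled fl EAE (413 to 1134). Acod1 was at 231, 422 and 803 CPM in the same NestinCre libraries and at 250.0 CPM in fl EAE. Replicate 3 stood highest for both genes. The whole list stood at 2680, 1010, 1528 and 2087 CPM in fl EAE replicates 1 to 4, from 5, 3, 5 and 8 nuclei. It stood at 1359, 1839 and 3581 CPM in NestinCre EAE replicates 1 to 3, so the genotypes overlapped in these values, few as the fl EAE nuclei were. Granule protein and inflammatory genes were detected together in 49 of the 188 nuclei, and neither in 44.

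Interferon-induced genes were detected in nearly all of the 188 nuclei and summed to 6864 CPM, against 4313 in phagocyte-like, 669.8 in T/NK-like and 261 in microglia-like nuclei. Slfn4, an interferon-inducible gene, was part of the selection, which may favour nuclei with such transcripts. The comparison is therefore not independent of the selection, and the part of the selection in it was not tested. At least 1 of the 16 genes was detected in 175 of the 188 nuclei (93.1%). The oligoadenylate synthetase-like Oasl2 was at 1160 CPM (128 nuclei), the schlafen Slfn1 (chr11:83007615-83013496, in the same cluster as Slfn4) at 902 CPM (110 nuclei) and Gbp5, a guanylate-binding protein induced by interferon gamma, at 731 CPM (71 nuclei). Schlafen and guanylate-binding protein genes each form families of similar copies, among which reads may be divided uncertainly.

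Across libraries, interferon-induced transcripts in neutrophil-like nuclei stood higher in NestinCre EAE replicates 1 to 3 than in any fl EAE library. The list was at 2437 CPM (10 UMIs), 4040 (8 UMIs), 2802 (22 UMIs) and 5665 (57 UMIs) in fl EAE replicates 1 to 4, and at 6964 (994 UMIs), 8804 (292 UMIs) and 7697 (374 UMIs) in NestinCre EAE replicates 1 to 3. NestinCre EAE replicate 4 had 1 nucleus under 6000 UMIs, with no UMI of the list. Gbp5 was at 659, 1538 and 844 CPM in NestinCre EAE replicates 1 to 3 and at 41.7 CPM (1 UMI, 95% interval 1.06 to 232) in pooled fl EAE. The chemokine Cxcl10 was at 119, 211 and 844 CPM and had 0 UMIs in fl EAE (upper limit of the 95% interval 154 CPM). Slfn1 was at 981, 844 and 844 CPM against 917 in fl EAE.

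The same list moved in the rest of the tissue. All other kept nuclei had 31.7, 43.5, 81.3 and 40.3 CPM in fl EAE replicates 1 to 4 and 388, 190.1, 307 and 201 CPM in NestinCre EAE replicates 1 to 4. Phagocyte-like nuclei had 814, 8232 and 3695 CPM in fl EAE replicates 1, 3 and 4, from 1, 10 and 10 nuclei, and replicate 2 had 0 such nuclei. In NestinCre EAE replicates 1 to 4 they had 3214, 7083, 5833 and 2557 CPM, where the genotypes overlapped. The part of free RNA from other cells in the interferon-induced transcripts of neutrophil-like nuclei was not tested.

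**Figure D4:**
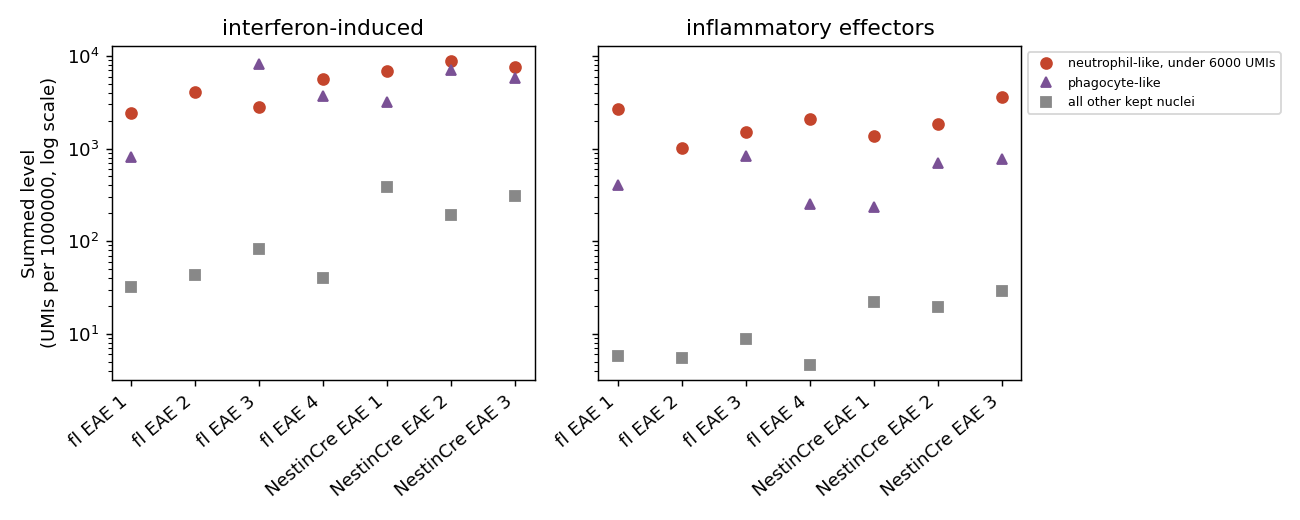
The summed level of interferon-induced genes (left) and inflammatory effectors (right), in UMIs per 1000000 on a log scale, is drawn for neutrophil-like nuclei under 6000 UMIs (circles), phagocyte-like nuclei (triangles) and all other kept nuclei (squares) of 7 EAE libraries. Neutrophil-like nuclei of NestinCre EAE replicates 1 to 3 stand at 6964 to 8804 for the interferon-induced list and those of fl EAE at 2437 to 5665.

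Few UMIs fell on genes of interleukin-12 sensing. Il12rb1, a subunit of the receptor, and Il12b, the p40 chain of the cytokine, were at 0 in the 188 nuclei, and Il12rb2 had 1 UMI. For Il12rb1, the floor of 11.7 CPM was above the 9.26 CPM of phagocyte-like nuclei, so that a difference was not detectable at this depth. Stat4, which relays the signal of the receptor, was at 27.3 CPM (7 nuclei), against 423 in T/NK-like, 31.7 in phagocyte-like and 0.841 in microglia-like nuclei. The interferon gamma receptor chains Ifngr1 and Ifngr2 were at 105 and 102 CPM. Of the chemokines and growth factors that draw neutrophils, Cxcl1, Cxcl3, Csf3, Il6 and Il17a were at 0 in the neutrophil-like nuclei. Their list summed to 207 CPM, but it also holds the adhesion molecules Sele, Selp, Icam1 and Vcam1, and Cxcl2 of the inflammatory effectors.

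Genes outside the selection that stood most above all other kept nuclei were chosen by the ratio of CPM, among 6853 genes with at least 20 UMIs in members. The retinol dehydrogenase Dhrs9 was at 164 CPM over the 188 nuclei (12.8% of them) against 0.109 CPM in the other kept nuclei, and Il1f9, an interleukin-1 family cytokine, at 215 CPM (21.3%) against 0.161. Sirpb1b, a paired immunoreceptor, was at 613 CPM (44.7%) against 0.793, the metalloreductase Steap4 at 250.0 CPM (21.3%) against 0.334, the stefin-like Cstdc4 at 85.9 CPM (7.98%) against 0.109 and Trim30b at 691 CPM (53.2%) against 0.966. Sirpb1b, Cstdc4, Trim30b and Klra17 belong to families of near-identical copies, so the division of reads among them is uncertain. Clec4d, Slfn1, Padi4 and Il1b of the lists above were also among the 15 leading genes.

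Against phagocyte-like nuclei, genes at 0 UMIs there gave lower bounds, set at 3 counts over the class. These bounds leave out the counting error of the class in which the gene was detected, and the genes were chosen for their ratio. Nlrp12 (an inhibitory Nod-like receptor) was at least 65.0-fold higher, Steap4 at least 63.0-fold, Klra17 at least 24.6-fold, Ofcc1 at least 22.6-fold and Cstdc4 at least 21.7-fold. In the other direction, Adgre4 was at least 4.97-fold lower, the haemoglobin scavenger receptor Cd163 at least 4.74-fold, the chemokine Ccl8 at least 2.93-fold and Ms4a7, itself a marker of the phagocyte class, at least 2.48-fold. Adgre4, Cd163, Ccl8 and Ms4a7 had no UMI in the 188 nuclei. Dhrs9 separated the classes as well, with 1 UMI in the phagocyte-like nuclei.

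Markers of other cells ranged from none to clearly detected in the 188 nuclei. All 5 basophil and mast cell markers were at 0, T/NK markers summed to 15.6 CPM with 6 of 9 at 0, and eosinophil markers summed to 15.6 CPM with 2 of 4 at 0. Border macrophage markers summed to 176 CPM (Mrc1 and Cd163 at 0) and microglia markers to 508 CPM (Tmem119 and Slc2a5 at 0). Monocyte-derived phagocyte markers summed to 1383 CPM, against 4112 in phagocyte-like nuclei, with 0 UMIs of Ms4a7. By library they stood at 1864, 603 and 617 CPM in NestinCre EAE replicates 1 to 3 and at 1000.1 CPM in fl EAE. B cell markers stood at 112, 151 and 741 CPM (16, 5 and 36 UMIs) in the same NestinCre libraries and at 0 in fl EAE, with 59 of their UMIs over the 188 nuclei from Ebf1 and Cd79a, Cd79b and Pax5 at 0. Erythroid markers stood at 77.1, 301 and 20.6 CPM (11, 10 and 1 UMIs) and at 208 CPM (5 UMIs) in fl EAE. Oligodendrocyte markers summed to 2516 CPM against 1649 in phagocyte-like nuclei, lay between 2412 and 3125 CPM in the 4 sets of libraries and included the myelin gene Mbp at 703 CPM. Granule cell markers, of which 4 were limited by the selection, summed to 535 CPM. The part of these transcripts in the levels above was not tested.

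Neutrophil transcripts were not limited to the neutrophil-like nuclei. The members held 17.9% of all S100a9 UMIs of the kept nuclei in NestinCre EAE replicate 1 (329 of 1833), 5.97% in replicate 2 (38 of 636), 28.4% in replicate 3 (238 of 839) and 0.352% in replicate 4 (1 of 284). For Slfn4 the members held 41.1%, 28.2% and 39.0% in NestinCre EAE replicates 1 to 3 and 0 of 15 UMIs in replicate 4. In fl EAE replicates 1 to 4 they held 66.7%, 90.9% (10 of 11 UMIs), 12.1% and 42.9% of Slfn4. Of S100a9 they held 24.8%, 2.70%, 19.5% and 14.4% in the same fl libraries. Nuclei that carried granule cell genes had an S100a9 UMI in 9.02%, 2.94%, 3.68% and 1.15% of cases in NestinCre EAE replicates 1 to 4, in 0.46% to 0.816% in fl EAE and in 0.185% to 0.328% in naive libraries. Slfn4 was found in 2.50%, 0.858%, 0.487% and 0.0233% of such nuclei in NestinCre EAE. Il1r2 was found in 1.32% to 4.00% of them in all 11 libraries, naive ones included.

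Summed over all kept nuclei of a library, 3 of the 8 markers were higher in NestinCre EAE, as were 3.5% of all genes tested. In such sums, fewer cells of a type and less RNA per cell cannot be told apart. S100a8 was at 24.8, 10.3, 14.3 and 3.09 CPM in NestinCre EAE replicates 1 to 4, at 2.09, 1.67, 1.90 and 1.67 CPM in fl EAE and at 0.297 to 0.908 CPM in the naive libraries. The genotypes did not overlap (log2 difference 2.59, SE 0.47, adjusted p = 0.0187, edgeR quasi-likelihood test with Benjamini-Hochberg adjustment and run as a covariate). S100a9 was at 37.8, 13.5, 20.6 and 3.30 CPM in NestinCre EAE and at 2.78, 2.06, 3.36 and 2.34 CPM in fl EAE, where replicate 4 of NestinCre fell inside the fl range (log2 difference 2.53, SE 0.55, edgeR adjusted p = 0.0425, and 0.0704 with the replicate number as a block). Csf3r was at 26.2, 9.52, 19.8 and 11.1 CPM against 4.43, 3.07, 4.91 and 4.07 CPM in fl EAE, without overlap (log2 difference 1.96, SE 0.33, edgeR adjusted p = 0.0138). Members held 25.3%, 13.2%, 14.9% and 0.105% of the Csf3r UMIs of NestinCre EAE replicates 1 to 4, the last being 1 of 956. Microglia-like nuclei also carried Csf3r, and their part in these sums was not tested. The naive libraries stood at 7.10, 4.07 and 4.81 CPM of Csf3r, level with or above fl EAE, while those of S100a9 all lay below fl EAE.

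Slfn4 differed widely among the NestinCre EAE libraries, at 23.6, 7.86, 9.45 and 0.174 CPM, against 0.314, 0.204, 1.35 and 1.31 CPM in fl EAE. Its log2 difference of 3.19 (SE 1.30) did not pass the test (edgeR adjusted p = 0.394), with NestinCre EAE replicate 4 below all fl EAE libraries. The values of replicates 1 to 3 lay above all 4 fl EAE values, as they did for 8.57% of all genes tested, and Slfn4 passed the test, with a log2 difference of 4.40, without replicate 4 of either genotype or in run 1 alone. Il1r2 (0.34), Cxcr2 (0.71), Mmp9 (0.61) and Retnlg (2.53) did not pass it either, with edgeR adjusted p of 0.762, 0.568, 0.286 and 0.0950. Cxcr2 passed at 1.18 without NestinCre EAE replicate 4, and Retnlg at 3.23 without replicate 4 of either genotype.

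**Figure D5:**
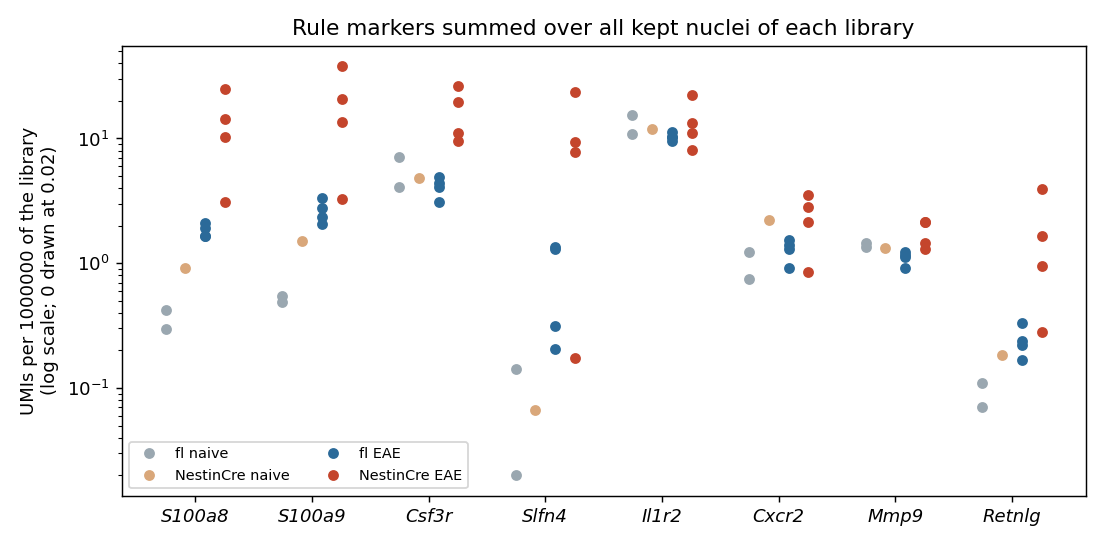
UMIs per 1000000 of each library (log scale, 0 drawn at 0.02) are shown for the 8 selection markers, with 1 point per library coloured by group. S100a8 and Csf3r of the 4 NestinCre EAE libraries lie above all fl EAE values, while Slfn4 of NestinCre EAE spans 0.174 to 23.6.

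Of all 18193 genes tested in this comparison 3.57% passed in either direction, 3.5% as higher and 0.077% as lower in NestinCre EAE. The 8 markers defined these nuclei and were chosen with earlier results of these data known, so their count of 3 is a description and nothing is read from it against that share. For NestinCre values that all lay above the fl values the background was 5.88% of genes. The median log2 difference was 2.25 over the 8 markers and -0.00 over all genes. Removing the 215 members before summing left these values nearly as they were, with S100a8 at a log2 difference of 2.62 (edgeR adjusted p = 0.0107), S100a9 at 2.55 (0.0269) and Csf3r at 1.84 (0.00994). Over all alternatives the adjusted p of S100a8 ranged from 7.44e-05 to 0.0969. Without fl EAE replicate 1, fl EAE replicate 2 or NestinCre EAE replicate 3, none of S100a8, S100a9 and Csf3r passed in edgeR, while the median log2 difference of the 8 markers was 2.16, 2.02 and 2.21. S100a8 also missed the threshold without fl EAE replicate 3, and S100a9 without fl EAE replicate 3 or NestinCre EAE replicate 1. Leaving out 1 library at a time, Csf3r ranged from 1.66 to 2.19.

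The wider gene lists hold many genes that monocyte-derived phagocytes and activated microglia also use. In the whole-library sums 45 of the 76 list genes tested were higher in NestinCre EAE and 0 were lower. Over all genes tested 3.5% were higher and 0.077% lower, so nothing is read from the absence of lower genes. Of 16 interferon-induced genes tested, 13 were higher (median log2 difference 2.99), among them Gbp2 (4.00), Oasl2 (3.65) and Gbp5 (3.58). Slfn1, Mx1 and Cxcl10, at 3.61, 2.84 and 3.75, did not pass the test (edgeR adjusted p = 0.0772, 0.0555 and 0.0873). Of 6 NADPH oxidase subunits, 5 were higher (median 2.38). Of 16 receptor and adhesion genes tested, 12 were higher (median 2.04), including the beta-glucan receptor Clec7a (3.83, edgeR adjusted p = 0.00686). Of 10 inflammatory effectors tested, 5 were higher (median 2.33), namely Acod1 (3.94), Nos2 (2.95), Ccl4 (2.56), Nlrp3 (2.10) and Ptgs2 (2.00), while Il1b, at 3.06, did not pass (edgeR adjusted p = 0.0563).

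Of 9 transcription factors tested, 5 were higher (median 1.12), where 3.5% of all genes tested were. Spi1 was at 1.65 and Runx1 at 1.43, and Mxd1, the factor that stood out within the neutrophil-like nuclei, at 0.19 (edgeR adjusted p = 0.645). Granule proteins gave 2 of 7 (median 0.75). Lcn2 had a log2 difference of 3.36 (edgeR adjusted p = 0.0235) and Chil3 of 5.06 (edgeR adjusted p = 0.0257). For both genes NestinCre EAE replicate 4, at 0.709 CPM of Lcn2 and 0.663 CPM of Chil3, lay inside the fl EAE range, and both calls were lost without fl EAE replicate 1, 2 or 3 or NestinCre EAE replicate 3. With 1 library left out, Lcn2 ranged from 2.67 to 3.90 and Chil3 from 3.95 to 5.74, and with the replicate number as a block 1 granule protein was called. By contrast, Ltf, Camp and Ngp were at 0.75, -0.11 and 0.86 and did not pass. Of the interleukin-12 and interferon gamma receptor genes, 2 of 7 were higher (Stat4, 2.31, and Il12rb1, 2.03; median 0.43). Both calls were lost with the replicate number as a block and without fl EAE replicate 1 or 2 or NestinCre EAE replicate 1. That of Stat4 was also lost without fl EAE replicate 3 or NestinCre EAE replicate 2 or 3. With 1 library left out, Stat4 ranged from 2.05 to 3.03 and Il12rb1 from 1.67 to 2.27. Of the list of attractants, growth factors and adhesion molecules, 1 of 5 tested was higher, the adhesion molecule Icam1 (2.03). It was not called without fl EAE replicate 1 or NestinCre EAE replicate 3. With 1 library left out, Icam1 ranged from 1.80 to 2.45. The chemokines Cxcl1, Cxcl5 and Cxcl12 did not pass (edgeR adjusted p = 0.527, 0.0813 and 0.942). The median of that list was 1.75, and 1.01 without NestinCre EAE replicate 1.

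Leaving out 1 library lowered the list counts in some cases and raised them in others, as it did the count over all genes. Without fl EAE replicate 1, 7 interferon-induced genes, 3 receptor and adhesion genes, 2 oxidase subunits and 1 transcription factor were called higher, and the first 3 of these lists had median log2 differences of 2.73, 1.87 and 2.22. Over all genes 208 were called higher in that setting, against 636 with all 8 libraries. Without NestinCre EAE replicate 3, 8 interferon-induced and 5 receptor and adhesion genes were called (medians 2.96 and 2.08) among 306 genes in all. Without fl EAE replicate 2 the counts were 8 and 4 (medians 2.89 and 1.90) among 313, and without NestinCre EAE replicate 1 they were 9 and 7 (medians 2.77 and 1.76) among 406. With the replicate number as a block they were 13 and 7 (medians 3.18 and 2.02) among 570 genes. Without replicate 4 of either genotype, 13 interferon-induced and 16 receptor and adhesion genes, 6 oxidase subunits and 8 inflammatory effectors were called. Over all genes 639 were higher without the fl library and 640 without the NestinCre one. With run as a covariate, both settings rest on the run 1 contrast, as does run 1 alone (637 genes higher). Without fl EAE replicate 3, 15 interferon-induced genes (median 3.80), 8 receptor and adhesion genes (median 2.27) and 8 inflammatory effectors (median 3.41) were called among 646 genes, and without NestinCre EAE replicate 2 the first 2 counts were 13 and 7 among 671. Summing without the 215 neutrophil-like nuclei gave 14 interferon-induced and 14 receptor and adhesion genes among 641 genes.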

How the data were processed

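The authors deposited 1 matrix of raw counts (UMIs per gene and barcode, introns included) for each of 11 libraries, made with Cell Ranger against GRCm39 with GENCODE genes. Per the file headers the version was 7.0.0 in run 1 and 6.0.2 in runs 2 and 3, so version and run cannot be told apart for run 1. Of 189709 deposited barcodes, 188089 were kept. The markers, gene lists and members were chosen with earlier results of these data known, and the markers of the selection came with the description of these nuclei. Named genes were those of the selection, the fixed lists, the leading genes by ratio of CPM (at least 20 UMIs in members, in 3 or more libraries), up to 8 genes per direction against phagocyte-like nuclei, and list genes past the threshold in the whole-library fit. Gene positions came from GENCODE (25613 of 25827 identifiers matched).

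Shares were compared by exact permutation of library labels, with Benjamini-Hochberg adjustment over 3 tests. Counts summed over all kept nuclei of the 8 EAE libraries were tested with edgeR 4.0.16 (TMM scaling, filterByExpr, quasi-likelihood, run as covariate, threshold 0.05), with DESeq2 1.42.0 as an alternative. The fit was tested on simulated data. Python 3.11.15, scanpy 1.11.5 and R 4.3.3 were used. No doublets were removed in the values reported as main, and Scrublet, at most 0.8% per 1000 barcodes, was an alternative. Sorting did not exclude doublets by size. Some genes of the lists are counted but not reported by name here.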

Additional observations from a re-analysis of the deposited data

How the results depend on the processing

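The share of neutrophil-like nuclei, NestinCre EAE against fl EAE, kept its direction and stayed short of the threshold in 20 alternatives (differences of 0.138 to 0.740 points, the latter with 2 markers required), as did EAE against naive in 21 (0.0869 to 0.407) and the share among leukocyte-like nuclei in 16 (-29.4 to -6.48). Leaving out 1 library at a time gave ranges of 0.138 to 0.409, 0.0869 to 0.203 and -29.4 to -14.8. Nuclei under 6000 UMIs for the last 2 of these comparisons, and members with at most 2% neuron genes for all 3, were alternatives chosen after seeing the data.

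The number of genes called in the whole-library fit was 650. It was 576 with the replicate block (526 shared), 645 with DESeq2 size factors, 938 with DESeq2 (854 higher, 84 lower), 718 with every gene of at least 1 count, 649 in run 1 alone and 655 without the members (643 shared). Leaving out 1 library gave 208 to 679, the lowest being 208 without fl EAE replicate 1, 314 without fl EAE replicate 2, 319 without NestinCre EAE replicate 3 and 410 without NestinCre EAE replicate 1. Of the 8 markers, 6 passed in run 1 alone, 4 in DESeq2 and 2 with the replicate block. Of the named genes, 58 were followed through the alternatives, and none of these reversed. Camp, Il12rb2 and Mxd1 were not among them.

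Deviations of same-numbered libraries correlated at -0.165, 0.291, 0.221 and -0.0632 for replicates 1 to 4. Differently numbered libraries correlated at -0.205 to 0.169. Replicates 2 and 3 thus stood above that range, and replicates 1 and 4 lay within it. Whether replicate numbers pair the samples was not tested. The blocked share test gave an exact permutation p of 0.25. Depth limits what single nuclei show, since a median of 965 UMIs leaves most genes undetected in any one, and 21 fl EAE nuclei give wide intervals.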
